A study of Homo sapiens with 48 samples.

Results

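The 10 genes described here encode the core of the transcription-export (TREX) machinery for mRNA and the receptor to which it hands the mRNA. They are THOC1, THOC2, THOC3, THOC5, THOC6 and THOC7 (the subunits of the THO complex), DDX39B (the RNA helicase also called UAP56), ALYREF (the export adaptor), and NXF1 and NXT1 (the export receptor and its small partner). Members were chosen by gene name, through the Ensembl identifiers of the count tables, and all 10 were among the 14685 genes measured. TREX is loaded onto nascent and spliced mRNA, near the cap through contacts with the cap-binding complex and along the transcript through exon junction complexes. DDX39B brings ALYREF to the RNA, ALYREF and the THO complex then recruit NXF1-NXT1, and the receptor carries the mRNA through the nuclear pore.

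RNA was sequenced from HEK293T cells, a human embryonic kidney line, all transfected with a plasmid for NCBP1 fused to Halo and labelled wild type. NCBP1 is the large subunit of the cap-binding complex, and in the T-REX arm it was modified with the lipid-derived electrophile HNE, released by light from a photocaged probe (Ht-PreHNE) bound to Halo. The 3 control arms were light alone, probe alone (no light) and DMSO, and RNA was taken 3, 6 and 12 h after the reaction, with 4 libraries in each arm at each time (48 in all). By the study's definition of its T-REX controls, light alone also received the probe, probe alone received no light, and DMSO received neither probe nor light. The sample labels read only control UV, control Pre and control DMSO, and do not say whether light alone received the probe. What set light alone apart from T-REX is not given in the sources used here. All arms therefore overexpressed NCBP1 from a transient transfection, and none shows the level of these genes in untransfected cells. The study describes the 4 replicates as biologically independent, though the labels do not name separate cultures.

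Total counts ran from 23952455 to 37099535 per library. NCBP1, whose count joins plasmid and endogenous transcripts, lay between 30800 and 92200 CPM (counts scaled to a common library size with TMM factors over the 48 libraries) in every library. The cells are labelled epithelial-like, but defining epithelial markers were low, with KRT18 at 7.14 to 13.4, KRT8 at 4.39 to 10.4 and CDH1 at 1.31 to 3.48 CPM, and EPCAM was not analysed here. The mesenchymal markers VIM (437 to 668 CPM) and CDH2 (62.2 to 102 CPM) were higher. In 4 libraries the genes deviated most from the other libraries of the same arm and time (SD over genes of the log2 difference from 0.283 to 0.302, and at most 0.228 elsewhere). These were T-REX replicates 1 and 3 at 3 h, light alone replicate 3 at 6 h and DMSO replicate 3 at 12 h. Members were often extreme in them: DMSO replicate 3 held the highest or lowest value of its time point for 6 of 10 members, light alone replicate 3 for 6, T-REX replicate 3 for 5 and T-REX replicate 1 for 3. In the other 44 libraries the number ran from 0 to 4, the highest in DMSO replicate 3 at 6 h.

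The promoters of ALYREF, NXF1 and NXT1 are shown because these were the genes called lower in all 3 comparisons between times, and that of THOC2 because it is the largest THO subunit and did not fall. RefSeq (GRCh38.p14) gave a window of 300 bases around the start of transcription, most of it upstream, for 9 of 10 members. Capitals mark GGGCGG (a GC box), CCAAT and CCGGAA (an ETS core), searched on both strands, with overlaps between motifs allowed.
ALYREF, chr17:81891538-81891837, minus strand: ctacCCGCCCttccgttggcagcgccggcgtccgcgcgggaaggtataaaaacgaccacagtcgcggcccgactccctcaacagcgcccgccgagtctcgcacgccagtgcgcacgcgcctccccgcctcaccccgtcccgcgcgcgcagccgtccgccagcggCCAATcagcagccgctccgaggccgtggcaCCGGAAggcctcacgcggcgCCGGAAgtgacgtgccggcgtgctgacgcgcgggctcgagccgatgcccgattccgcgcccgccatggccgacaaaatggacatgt
NXF1, chr11:62805391-62805690, minus strand: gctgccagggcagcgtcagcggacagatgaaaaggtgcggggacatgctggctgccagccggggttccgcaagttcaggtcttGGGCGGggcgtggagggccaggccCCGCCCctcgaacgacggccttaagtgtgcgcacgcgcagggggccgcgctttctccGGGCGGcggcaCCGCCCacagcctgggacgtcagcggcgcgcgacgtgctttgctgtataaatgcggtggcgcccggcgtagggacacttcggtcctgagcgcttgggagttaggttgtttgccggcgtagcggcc
NXT1, chr20:23350541-23350840, plus strand: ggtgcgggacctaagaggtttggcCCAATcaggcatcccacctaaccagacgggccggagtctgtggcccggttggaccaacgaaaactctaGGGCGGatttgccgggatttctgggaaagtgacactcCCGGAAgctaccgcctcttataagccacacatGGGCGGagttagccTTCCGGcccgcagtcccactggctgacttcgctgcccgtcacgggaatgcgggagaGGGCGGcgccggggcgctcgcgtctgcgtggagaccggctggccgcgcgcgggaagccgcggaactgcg
THOC2, chrX:123733003-123733302, minus strand: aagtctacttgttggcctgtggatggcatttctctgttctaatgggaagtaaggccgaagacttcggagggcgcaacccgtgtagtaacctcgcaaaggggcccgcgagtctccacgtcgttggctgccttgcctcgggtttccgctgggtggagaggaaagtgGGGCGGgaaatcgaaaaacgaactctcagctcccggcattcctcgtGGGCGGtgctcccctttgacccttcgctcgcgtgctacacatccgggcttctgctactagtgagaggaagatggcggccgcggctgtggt
GGGCGG was found in 8 of 9 member promoters and in 44.6% of all 27305 promoters of this length. CCGGAA was found in 5 of 9, against 17.6% of all promoters, and CCAAT in 3 of 9, against 35.7%. NXF1 held 4 matches to GGGCGG and none to CCAAT or CCGGAA, whereas ALYREF and NXT1 each held all 3 motifs and THOC2 only GGGCGG, with 2 matches. TATAAA was present in 3 of 9 (12% of all promoters) and CACGTG in 0 of 9 (7.43% of all). These matches describe the letters of these windows and not binding.

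The export genes were expressed at very different levels. Per kb of the principal GENCODE 29 transcript, THOC2, the scaffold of the THO complex, was highest, at 84.1 ± 4.45 CPM per kb (SD, n = 48). DDX39B followed at 67.9 ± 5.59 and NXF1 at 49.2 ± 8.14 CPM per kb. THOC1 (31.6 ± 1.83) and THOC7 (29.3 ± 3.37 CPM per kb) came next, and THOC1 exceeded THOC7 in 37 of 48 libraries. THOC5 (18.6 ± 1.49) and ALYREF (17.9 ± 3.83 CPM per kb) were close, with THOC5 above ALYREF in 31 of 48 libraries. THOC3 stood at 13.9 ± 0.938 CPM per kb. THOC6 (4.61 ± 1.06) and NXT1 (4.43 ± 0.951 CPM per kb) were lowest and did not separate, since THOC6 was above NXT1 in 27 of 48 libraries. The NXF1 and NXT1 proteins act as a heterodimer, but the NXF1 transcript was the third in this order and the NXT1 transcript the tenth. Divided by the length of all annotated exons instead, the order changed for 7 of 10 genes: NXF1 passed DDX39B, THOC1 moved from the fourth to the seventh place below THOC7, ALYREF and THOC5, and NXT1 passed THOC6.

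**Figure D1:**
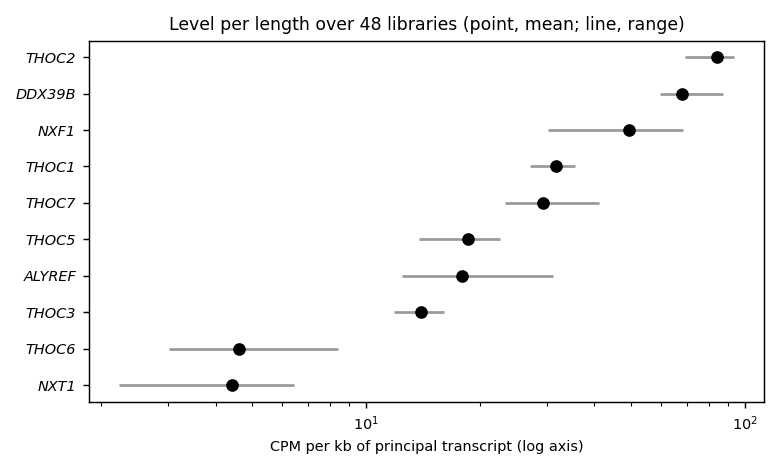
Mean (points) and range (lines) over 48 libraries of CPM per kb of principal transcript, on a log axis, for the 10 TREX genes. THOC2 has the highest mean, 84.1, and THOC6 and NXT1 the lowest, 4.61 and 4.43.

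Depth and spread differed between the genes. THOC2 was counted 10432 to 17178 times per library, whereas NXT1 was counted 71 to 217 times and THOC6 113 to 355 times. Between replicates of an arm at 3 h, the pooled SD of log2 CPM was 0.0737 for DDX39B, 0.0756 for THOC1 and 0.0836 for THOC2, against a median of 0.142 over all genes. It was 0.368 for THOC6, 0.202 for NXT1 and 0.195 for ALYREF. THOC6 shares 14% of its exonic bases with HCFC1R1 on the opposite strand, and whether reads were counted by strand is not given in the sources used here, so that part of its count may belong to that gene. The overlap was at most 3.94% (ALYREF with ANAPC11) for the other members.

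Whether HNE modification of NCBP1 changed the export genes was first asked of T-REX against each control. Of 90 member comparisons with a single control, 1 passed (edgeR quasi-likelihood test, Benjamini-Hochberg adjusted p of at most 0.05 over all genes): NXF1 at 12 h against DMSO. At 3 h no member passed, where 0.197% of all genes passed for light alone as the control, 1.05% for probe alone and 5.99% for DMSO. At 6 h no member passed, with 0.218%, 0.109% and 0.415% of all genes. At 12 h no member passed against light alone (1.29% of all genes) or probe alone (0.701%), and 1 of 10 passed against DMSO, where 10.9% of all genes did. The member counts were thus near or under these backgrounds, and the unadjusted p was at most 0.05 for 3 of 10 members against DMSO at 3 h and again at 12 h (21.9% and 26.9% of all genes). It was so for 2 of 10 against probe alone (18%) and 1 of 10 against light alone (14.8%) at 3 h, and for 2 of 10 against light alone at 6 h (11.7%). None of the 10 was called in 1 direction against at least 2 of the 3 controls, the rule of the study, which 0.947%, 0.136% and 1.4% of all genes met at 3, 6 and 12 h. With the deposited factors of unwanted variation as covariates, THOC7 and ALYREF met it at 3 h. ALYREF was then higher than light alone by 0.23 (log2, adjusted p = 0.0207) and than DMSO by 0.21 (adjusted p = 0.021, edgeR). That fit called 11.8%, 17.4% and 20.8% of all genes against light alone, probe alone and DMSO, and the share meeting the rule was not counted.

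Against the mean of the 3 controls, 0 of 10 members passed at 3, 6 or 12 h (6.17%, 0.388% and 3.78% of all genes), with the unadjusted p at most 0.05 for 3, 0 and 0 members (22.5%, 10.1% and 18.2% of all genes). DESeq2 called 1 member at 3 h, and 7.9% of all genes. The members' median log2 fold changes at the 3 times were 0.04, -0.00 and -0.04, beside 0.02, 0.00 and 0.00 over all genes. For the most precisely measured genes the intervals were narrow: at 6 h THOC2 was at 0.966-fold (95% interval 0.911 to 1.02) and THOC1 at 1.01-fold (0.943 to 1.08). For THOC6 the interval at 12 h ran from 0.694- to 1.05-fold, so that a fall of this size could not be told from no change.

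**Figure D2:**
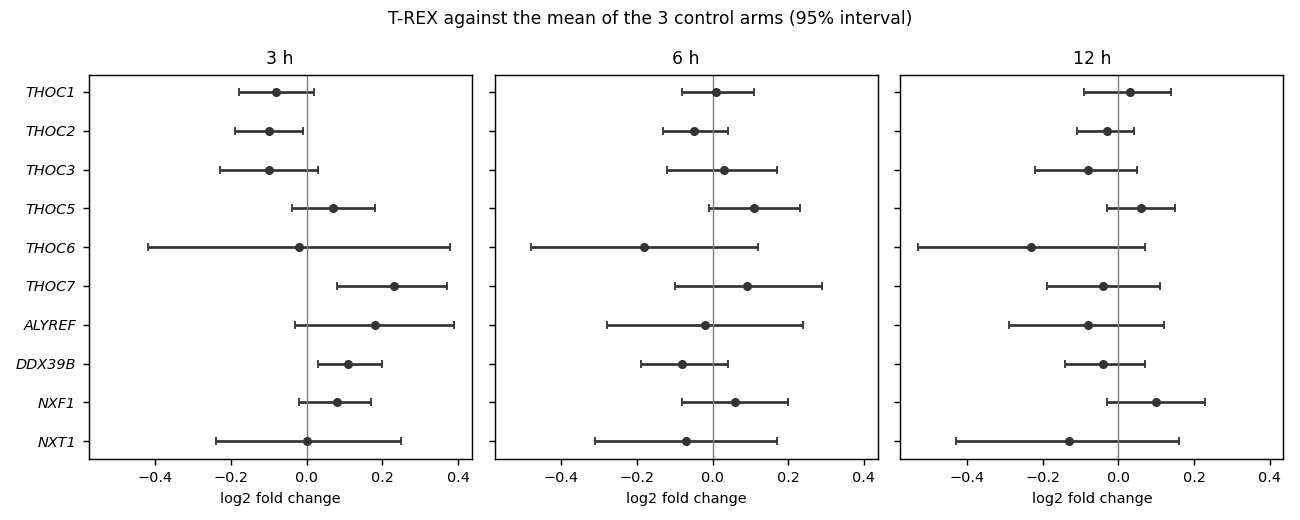
Log2 fold change of T-REX against the mean of the 3 control arms (points) with 95% intervals (lines), for 10 TREX genes at 3, 6 and 12 h. THOC7 at 3 h lies farthest above 0 (0.23) and THOC6 at 12 h farthest below (-0.23).

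THOC7, a small subunit of the THO complex, came nearest to a change at 3 h. In CPM, the 4 T-REX libraries held 32.4, 34.2, 40.7 and 29.7. Light alone held 27.0, 29.8, 29.1 and 28.1, probe alone 32.7, 30.5, 29.1 and 28.7, and DMSO 27.5, 30.2, 32 and 27.3. Thus 2 T-REX libraries lay above all 12 control libraries, and the arms overlapped. T-REX was 1.17-fold the mean of the controls (log2 fold change 0.23 ± 0.0694 SE, adjusted p = 0.0529, edgeR). The call was made with DESeq2 (adjusted p = 0.0417), with the replicate number as a block (adjusted p = 0.0381) and with the deposited factors of unwanted variation as covariates (adjusted p = 0.00185). It was also made without T-REX replicate 1, T-REX replicate 4 or DMSO replicate 3 (adjusted p from 0.0364). Without any 1 of the 16 libraries the log2 fold change ran from 0.13 to 0.29, and the adjusted p reached 0.229, without T-REX replicate 3. Without the deviating T-REX replicates 1 and 3 together the value was 0.13 (adjusted p = 0.389, edgeR). NCBP1 was higher in T-REX than in the mean of the controls at 3 h as well (log2 fold change 0.35, adjusted p = 0.0494, edgeR), and its part was not tested. With those covariates THOC7 at 3 h was called higher than in each control, by 0.26 for light alone, 0.19 for probe alone and 0.23 for DMSO (log2). At 6 h T-REX libraries held 30.4, 32.1, 34.4 and 23.0 CPM of THOC7, and at 12 h 29.6, 26.7, 25.7 and 27.2, with log2 fold changes of 0.09 and -0.04 from the mean of the controls. The counts per gene do not separate the isoforms of THOC7.

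The other THO subunits and DDX39B showed no call of T-REX at 3 h, though some lay to 1 side. THOC2 held 478, 455, 389 and 414 CPM under T-REX and 489, 495, 450 and 492 under DMSO, which overlapped (log2 fold change -0.15 ± 0.0538, adjusted p = 0.109, edgeR). This was called without T-REX replicate 1 (-0.20, adjusted p = 0.0225), stood at -0.10 without T-REX replicate 3 (adjusted p = 0.259), and was called with the deposited factors as covariates (adjusted p = 0.000878). THOC3, which did not pass (adjusted p = 0.376, edgeR), held 21.3, 21.0, 20.5 and 22.4 CPM under T-REX, all below the 22.5, 23.2, 23.3 and 23.6 of DMSO. Of 60 pairs of arms over the members at 3 h, this was the 1 without overlap, and the share over all genes was not counted. DDX39B held 165, 155, 155 and 141 CPM under T-REX and 132, 133, 136 and 145 under probe alone, which overlapped in 1 library of each (log2 fold change 0.19 ± 0.0514, adjusted p = 0.0735, edgeR). This was called without probe alone replicate 4 (0.22, adjusted p = 0.0419) and stood at 0.15 without T-REX replicate 1 (adjusted p = 0.118). It was called as well with the deposited factors as covariates (0.18, adjusted p = 0.00214, edgeR). THOC1 stood at -0.12 ± 0.0585 (log2) against DMSO, with an adjusted p of 0.223 (edgeR).

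NXF1, which carries mRNA through the pore, was the 1 member called for T-REX. At 12 h its CPM was 121, 125, 123 and 134 under T-REX and 110, 108, 84.1 and 114 under DMSO. It was 119, 136, 126 and 131 under probe alone and 112, 111, 121 and 140 under light alone. All T-REX and all probe alone libraries were above all DMSO libraries, and light alone overlapped with every arm. Over the members, 6 of 60 pairs of arms did not overlap at 12 h, and the share over all genes was not counted. NXF1 rose 1.21-fold in T-REX against DMSO (95% interval 1.08 to 1.35, adjusted p = 0.0273, edgeR). It rose as well in probe alone against DMSO (1.23-fold, 1.1 to 1.38, adjusted p = 0.0283, edgeR). T-REX against probe alone gave 0.981-fold (0.877 to 1.1, adjusted p = 0.936), and against light alone 1.04-fold (0.932 to 1.16, adjusted p = 0.815). The difference from DMSO was thus seen in an arm without light, and NXF1 in T-REX was not separated from that arm. Mean NXF1 at 12 h was also higher under light alone (121 CPM) than under DMSO (104 CPM), which did not pass. That comparison was called with the deposited factors of unwanted variation as covariates (log2 fold change 0.22, adjusted p = 0.00325, edgeR). The T-REX and probe alone comparisons share the 4 DMSO libraries, and replicate 3 of DMSO had the lowest NXF1 of all 48 libraries. Without it, neither was called, at a log2 fold change of 0.19 for T-REX (adjusted p = 0.0549) and 0.21 for probe alone (adjusted p = 0.0522, edgeR). The T-REX call was also lost without T-REX replicate 2, 3 or 4 (log2 fold change 0.24 to 0.28, adjusted p from 0.0506 to 0.0846), and when only both arms were fitted (0.28, adjusted p = 0.0871). The probe alone call was lost likewise without probe alone replicate 2, 3 or 4 (adjusted p up to 0.0937). NCBP1 was also higher at 12 h, at log2 0.73 for T-REX and 0.77 for probe alone against DMSO (adjusted p = 0.00252 and 0.00541, edgeR). At 6 h mean NCBP1 was 72800 CPM under T-REX, 82900 under probe alone and 53700 under DMSO, while mean NXF1 was 133, 128 and 131 CPM. Under light alone mean NCBP1 at 12 h was 40500 CPM, and under DMSO 34600. The part of NCBP1 in the NXF1 result was not tested.

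At 12 h NXT1 did not follow NXF1. It held 4.06, 3.50, 3.25 and 4.18 CPM under T-REX, 4.08, 3.59, 3.98 and 2.50 under probe alone, and 4.87, 4.75, 4.99 and 4.35 under DMSO. All libraries of T-REX and probe alone were below those of DMSO, but the differences did not pass (log2 fold change -0.33 ± 0.172, adjusted p = 0.215, and -0.42 ± 0.174, adjusted p = 0.149, edgeR). THOC5 and THOC6 stood at 0.13 and -0.43 (log2) in T-REX against DMSO at 12 h (adjusted p = 0.139 and 0.118, edgeR). Both values moved with single DMSO libraries. Without replicate 4 of DMSO both were called (0.19, adjusted p = 0.0124, and -0.54, adjusted p = 0.0379), whereas THOC5 stood at 0.09 without replicate 3 (adjusted p = 0.3) and THOC6 at -0.14 without replicate 1 (adjusted p = 0.573, edgeR). DMSO replicate 1 held 11.9 CPM of THOC6, against 6.97, 6.01 and 5.90 in the others. ALYREF gave -0.08 ± 0.0989 (log2) against the mean of the controls at 12 h, with 15.7, 15.2, 15.8 and 14.8 CPM under T-REX.

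The controls were compared among themselves in the same way, and 1 of 90 member comparisons passed, NXF1 in probe alone against DMSO at 12 h (5.11% of all genes). No member passed in light alone against DMSO (0.00681%, 0.00681% and 0.0136% of all genes at 3, 6 and 12 h), in probe alone against DMSO at 3 h (0.00681%) or 6 h (0.0272%), or in light alone against probe alone (0.232%, 0.0613% and 0.415%). The unadjusted p was at most 0.05 for 6 of 10 members in probe alone against DMSO at 12 h, and for 23.3% of all genes.

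The differences between times were larger, and largest for the adaptor and the receptor. Over the 4 arms, NXT1 fell by 0.58, ALYREF by 0.51 and NXF1 by 0.46 on the log2 scale from 3 to 12 h, while THOC1, THOC2, THOC3, THOC6 and DDX39B did not pass. From 3 to 12 h 5 of 10 members fell and 0 rose, where 66% of all genes were called and 32.9% fell. From 3 to 6 h 4 fell and 1 rose (48.3% of all genes called, 23.6% lower), and from 6 to 12 h 3 fell and 1 rose (41.4% called, 20.6% lower). Members were thus called no more often than all genes from 3 to 12 h, and what set some apart was how far they moved. The 3 time points were fitted in 1 model of 48 libraries, and time cannot be told apart from the age of the culture, the time since transfection or handling on the day. In these bulk RNA samples, fewer cells of a kind and less RNA per cell cannot be told apart.

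**Figure D3:**
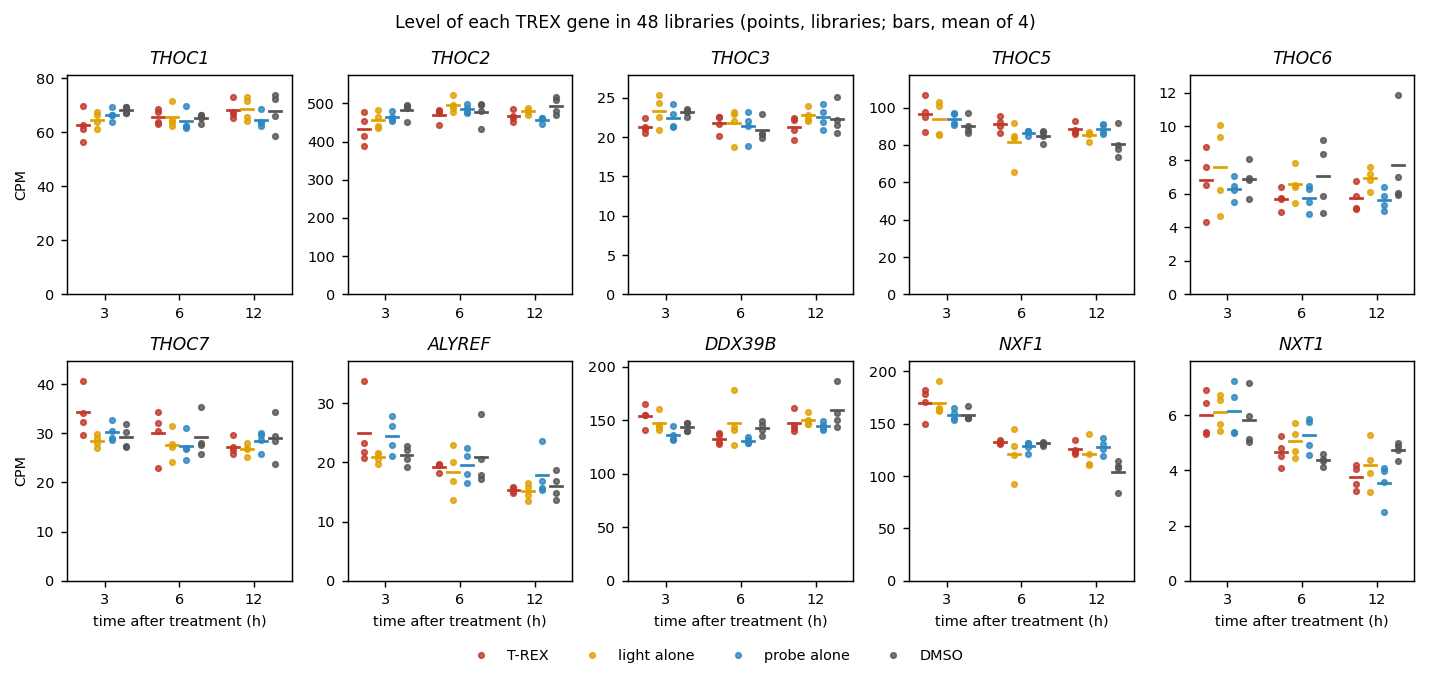
CPM of each TREX gene (y axes from 0) in every library at 3, 6 and 12 h, with points for libraries and bars for the mean of 4, coloured by arm. For NXF1 every library at 6 and 12 h lies below every library at 3 h, whereas the THOC1 and THOC2 libraries of the 3 times overlap.

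Among the members, NXF1 showed the cleanest separation between times, and how many of all genes separated as cleanly was not counted. Its CPM was 150 to 191 (median 163, n = 16) at 3 h, 92.0 to 145 (median 131) at 6 h and 84.1 to 140 (median 121) at 12 h. All 16 libraries at 6 h and all 16 at 12 h were below the lowest at 3 h. NXF1 fell by 21.8% from 3 to 6 h (95% interval of the fold 0.738 to 0.828, adjusted p = 1.3e-09) and by 27.3% from 3 to 12 h (0.686 to 0.771, adjusted p = 3.2e-13, edgeR). It fell within each arm in both intervals, by 0.36 to 6 h and 0.44 to 12 h (log2) in T-REX, 0.49 and 0.49 in light alone, 0.30 and 0.31 in probe alone, and 0.27 and 0.60 in DMSO. From 6 to 12 h the fall was 0.10 (log2, adjusted p = 0.0407, edgeR), and this call was lost in 14 of the 48 fits without 1 library. Within arms it passed only in DMSO (-0.33), against -0.08 in T-REX, -0.01 in light alone and -0.00 in probe alone.

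NXT1, the small partner that stabilises NXF1, had 5.04 to 7.25 CPM (median 5.83) at 3 h, 4.10 to 5.86 (4.65) at 6 h and 2.50 to 5.28 (4.07) at 12 h. At 12 h 15 of 16 libraries were below the lowest at 3 h, and how many of all genes were so was not counted. NXT1 fell by 0.32 to 6 h (adjusted p = 0.000278) and by 0.58 to 12 h on the log2 scale (adjusted p = 1.88e-09, edgeR). Within single arms NXT1 passed to 6 h only in DMSO. To 12 h it fell in T-REX (-0.68), light alone (-0.54) and probe alone (-0.80), and was at -0.30 in DMSO, which did not pass (adjusted p = 0.0999, edgeR). From 6 to 12 h it fell by 0.26 over the 4 arms (adjusted p = 0.00395, edgeR). That interval passed within probe alone only, and in DMSO its value was 0.12, which did not pass.

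ALYREF, the adaptor, had 19.3 to 33.8 CPM (median 21.6) at 3 h, 13.7 to 28.2 (19.6) at 6 h and 13.5 to 23.6 (15.7) at 12 h. At 12 h 15 of 16 libraries were below the lowest at 3 h, and the exception was probe alone replicate 3. The share of all genes that were so was not counted. ALYREF fell by 0.23 to 6 h (adjusted p = 0.00903), by 0.51 to 12 h (adjusted p = 6.66e-08) and by 0.28 from 6 to 12 h (log2, adjusted p = 0.00182, edgeR). The fall to 12 h passed in every arm, at -0.69 in T-REX, -0.46 in light alone, -0.46 in probe alone and -0.40 in DMSO. The falls to 6 h and from 6 to 12 h passed within no single arm.

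Among all genes these 3 falls were far down: 1.34% of genes had a lower log2 fold change than NXT1 from 3 to 12 h, 2.5% than ALYREF and 3.55% than NXF1. The other 7 members had between 31.9% (THOC5) and 57% (DDX39B) of genes below them. From 3 to 6 h, 2.3% of genes had a lower value than NXF1, 3.51% than NXT1 and 10% than ALYREF.

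Of the 6 THO subunits, THOC5 and THOC7 fell from 3 to 12 h, and by less than the export factors above. THOC1 had a median of 66.5 CPM at 3 h, 64.2 at 6 h and 66.5 at 12 h, and gave 0.04 ± 0.0303 from 3 to 12 h (log2, 95% interval -0.02 to 0.10). THOC2 had medians of 461, 481 and 469 CPM, rose by 0.07 to 6 h (adjusted p = 0.0138, edgeR) and stood at 0.05 to 12 h (adjusted p = 0.0841). THOC2 passed within no single arm, and was at -0.02 in DMSO at 6 h. THOC3 had medians of 22.5, 21.8 and 22.2 CPM and gave -0.02 ± 0.0377 from 3 to 12 h (log2). THOC5 fell by 0.12 to 6 h and 0.13 to 12 h (log2, adjusted p = 0.00213 and 0.000876, edgeR), with all 16 libraries at 12 h below the median at 3 h. The THOC5 fall to 6 h passed only within light alone, and that to 12 h within no single arm. THOC6, the least precise, gave -0.09 ± 0.102 (log2) to 12 h. THOC7 fell by 0.13 to 12 h (log2, adjusted p = 0.025, edgeR). That call was lost without T-REX replicate 3 at 3 h or DMSO replicate 3 at 12 h, and the fall passed only within T-REX (-0.33), against -0.09 in light alone, -0.09 in probe alone and -0.01 in DMSO.

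DDX39B moved the other way at the end. It was not called from 3 to 6 h over the 4 arms (-0.07, adjusted p = 0.0676) but fell within T-REX (-0.21, adjusted p = 0.0173, edgeR), with the interaction not passing (-0.18, adjusted p = 0.601). Its medians were 144, 136 and 147 CPM, and it rose by 0.12 from 6 to 12 h (log2, adjusted p = 0.00264, edgeR), with no library at 12 h below the median at 6 h. This rise of DDX39B passed within no single arm. Its paralog DDX39A, which can take its place in TREX, went down: from a median of 21.2 CPM at 3 h to 17.4 at 6 h and 17.4 at 12 h (log2 fold change to 12 h -0.32 ± 0.0738, adjusted p = 0.00022, edgeR). How reads that fit both genes were counted is not given in the sources used here.

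**Figure D4:**
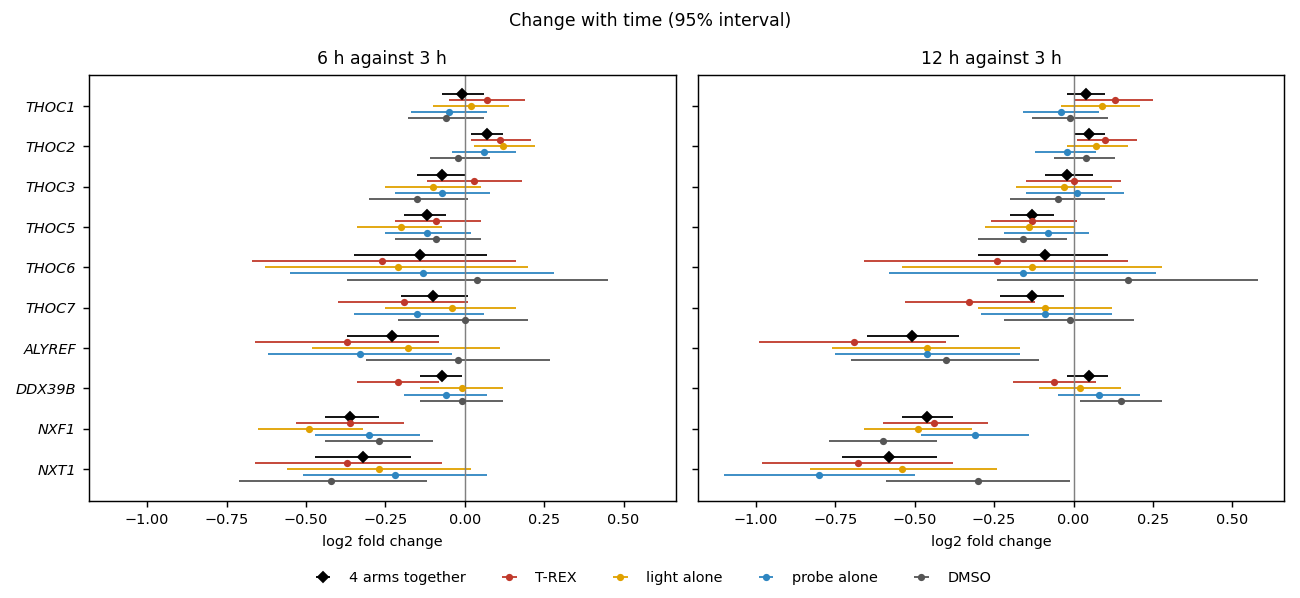
Log2 fold change from 3 to 6 h and from 3 to 12 h with 95% intervals for 10 TREX genes, over the 4 arms (diamonds) and within each arm (circles). ALYREF, NXF1 and NXT1 lie below 0 at 12 h in every arm, and THOC1, THOC2 and THOC3 lie near 0.

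Without the 4 libraries that deviated most, 6, 4 and 4 members were called from 3 to 6, 3 to 12 and 6 to 12 h (47.8%, 66.2% and 44.6% of all genes). NXT1 then fell by 0.58, ALYREF by 0.45 and NXF1 by 0.43 to 12 h (log2), THOC7 was not called (adjusted p = 0.127), and DDX39B was called lower at 6 h (-0.08). NXF1 in T-REX against DMSO at 12 h was then not called (0.19, adjusted p = 0.0549, edgeR). Other measures moved with time. NCBP1 fell by 0.44 (log2) from 3 to 12 h (adjusted p = 1.21e-06, edgeR). Of the 5 measured markers in the list for the label epithelial-like (KRT8, KRT18, CDH1, CDH2 and VIM), 4 rose to 12 h. Over all 14685 genes, 4864 rose. The summed CPM of the 5 was 519 to 672 at 3 h and 680 to 786 at 12 h. Most of that sum came from the mesenchymal markers VIM (437 to 668 CPM over the 48 libraries) and CDH2 (62.2 to 102 CPM). Of 5 markers of other cells, COL1A1 was the 1 measured, at 2.13 to 4.29 CPM at 3 h and 3.33 to 6.07 at 12 h (log2 fold change 0.44). The part of these in the falls was not tested, and the other cells' markers PTPRC, PECAM1, COL3A1 and ALB were not analysed here.

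Whether the T-REX effect on the export genes depended on time was tested by interaction terms, and 0 of 10 members passed in any of the 3 contrasts. For 6 against 3 h and 12 against 6 h, 0% of all genes passed (with an unadjusted p of at most 0.05 for 1 and 0 members), and for 12 against 3 h 0.116% did (1 member at an unadjusted p of at most 0.05). DESeq2 also called 0 members in the 3 contrasts. THOC7 had the largest, at -0.26 for 12 against 3 h (95% interval -0.50 to -0.03, adjusted p = 0.385, edgeR). ALYREF was at -0.25 (-0.59 to 0.09) and NXF1 at 0.03 (-0.16 to 0.22) in that contrast.

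The other genes of the export pathway were counted from lists of related complexes. From 3 to 12 h, 8 of 9 exon junction complex genes fell and 0 rose, with EIF4A3 (the helicase at its core) at -0.52, RBM8A (which clamps it together with MAGOH) at -0.50 and MAGOH at -0.34 (log2). All 5 cap-binding partners fell: SRRT, which joins the cap-binding complex to RNA processing, by 0.43, NCBP2, the small cap-binding subunit, by 0.36, and PHAX, the export adaptor of small nuclear RNA, by 0.28. In the nuclear pore list 16 of 23 fell and 0 rose, in TREX-2 4 of 6 fell and 1 rose, among other TREX adaptors 6 of 9 fell and 0 rose, and all 3 SR adaptors fell. The background was 32.9% lower, and the list medians were -0.28, -0.28, -0.18, -0.12, -0.16 and -0.16 in that order, beside -0.11 for the 10 members and -0.01 for all genes. Besides RBM8A, the genes of these lists named here were chosen after their values were seen. NCBP3 stands in both the cap-binding and the adaptor list, and LUZP4 was not analysed here.

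With T-REX at 12 h, 10 genes of these lists fell against DMSO and none rose. Over all 14685 genes 997 fell and 601 rose (10.9% called). The 10 were 3 of 6 in TREX-2, 2 of 9 in the exon junction complex, 2 of 23 in the nuclear pore, 2 of 3 SR adaptors and 1 of 9 other adaptors. None of the 5 cap-binding partners passed. RBM8A at 12 h was the 1 called against 2 controls, and 1.4% of all genes were called against at least 2 at that time. It held 128, 138, 137 and 132 CPM under T-REX, 153, 158, 161 and 154 under light alone and 154, 162, 161 and 149 under DMSO. The log2 fold change was -0.23 from light alone (adjusted p = 0.011) and also -0.23 from DMSO (adjusted p = 0.00336, edgeR). T-REX was below every library of both (how many of all genes were so was not counted). Against probe alone (147, 153, 149 and 140 CPM) the value of -0.14 did not pass (adjusted p = 0.214). Mean NCBP1 at 12 h was 57500 CPM under T-REX and 59200 under probe alone, but 40500 under light alone and 34600 under DMSO. Its part in the RBM8A result was not tested. At 12 h against DMSO, the TREX-2 genes ENY2 (-0.31), CETN2 (-0.43) and CETN3 (-0.31), the adaptor ERH (-0.39) and the SR proteins SRSF3 (-0.26) and SRSF7 (-0.21, log2) also fell. So did SAP18 (-0.26) of the exon junction complex list, and NXT2 (-0.42) and NUP155 (-0.22, log2) of the nuclear pore list. SRSF3 (-0.22, adjusted p = 0.0117) and NUP155 (-0.17, adjusted p = 0.0451, edgeR) were called lower in probe alone against DMSO as well, an arm without light. At 3 h against DMSO FYTTD1, an adaptor that can act in place of ALYREF, fell by 0.25 (log2), NUP155 of the pore scaffold fell by 0.16, and SEM1, a TREX-2 subunit, rose by 0.22.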

How the data were processed

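Stranded libraries were made from TRIzol RNA of HEK293T cells, with ribosomal RNA depletion, and sequenced as paired ends on a NovaSeq; demultiplexing used bcl2fastq. The authors deposited raw counts per gene, log2 CPM and, as a score per library, 2 factors of unwanted variation; the adjusted expression tables were not used. The reporting summary of the study lists TopHat, Cufflinks and cutadapt as RNA-seq software. Which program made the raw counts, the genome build and the treatment of reads with several matches are not given in the sources used here. All 14685 genes had at least 2 counts in every library, and 0 genes were removed by a filter on low counts. Totals of 23952455 to 37099535 counts per library limit the rarer genes most.

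Counts were fitted with edgeR 4.0.16 (TMM, robust dispersions, quasi-likelihood test) in R 4.3.3, for the 16 libraries of each time point, and over 48 libraries for time and interactions. Adjusted p-values (Benjamini-Hochberg over 14685 genes) of at most 0.05 were called. CPM values were scaled by TMM over 48 libraries. Groups came from the labels, and no 2 libraries agreed within counting noise (chi-square per degree of freedom of at least 3.15 over 72 replicate pairs). Alternatives were DESeq2 1.42.0, RLE factors, no filter, the replicate block, the deposited factors as covariates, limma-trend (3.58.1) on the deposited log2 CPM, only both arms compared and each library left out; the fits within arms and without 4 libraries were chosen after seeing the data. The scripts were tested on simulated data. Named were all 10 members, NCBP1, DDX39A, and genes of the related lists called in 1 direction against at least 2 controls; members and lists were chosen with earlier results of these data known. Lengths came from GENCODE 29, which held 14556 of the identifiers.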

Additional observations from a re-analysis of the deposited data

Results flagged for a closer look

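In 6 of 120 groups of 4 libraries, 1 library lay far from the other 3 by Dixon's criterion, and chance gives about 1 in 20 groups. For NXF1 these were light alone replicate 1 at 3 h, with 191 CPM against 162 to 165, and DMSO replicate 3 at 3 h, with 167 CPM against 155 in the others. For THOC2 they were DMSO replicate 3 at 3 h, with 450 CPM against 489 to 495, and probe alone replicate 4 at 12 h, with 446 CPM against 460 to 462. THOC1 in probe alone replicate 3 at 6 h had 69.8 CPM against 61.6 to 62.5. ALYREF in T-REX replicate 2 at 6 h had 18.2 CPM against 19.5 to 19.8.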

How the results depend on the processing

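Counts of members called kept within 1.5 times under RLE factors (30 of 30 results), limma-trend (24 of 24), DESeq2 and the replicate block (29 of 30 each), and comparing only both arms (19 of 21). The fit with no filter could not differ from the main fit, since the filter removed no gene. T-REX against the mean of the controls at 3 h gave 1 member with DESeq2 and 1 with the replicate block. Same-numbered libraries did not steadily deviate together (median correlation 0.0686, -0.00943 and 0.00321 at 3, 6 and 12 h). At 3 h the correlations ran from -0.637 to 0.573, 12 of 24 pairs exceeded 0.1, and the median of other pairs was -0.0129. The numbers were not taken as pairs in the main fit, and a shared handling of same-numbered libraries at 3 h was not excluded. With the deposited factors as covariates, members called at 3 h were 2 against light alone, 2 against probe alone, 3 against DMSO, 4 against the mean, 2 against at least 2 controls (THOC7 and ALYREF) and 2 for light against probe alone. At 6 h they were 2 for T-REX against light alone and 1 for light alone against DMSO, and at 12 h 5 for T-REX, 1 for light alone and 5 for probe alone against DMSO; the cause was not tested. That fit called 11.8%, 17.4%, 20.8% and 20.9% of all genes for T-REX at 3 h, and 26.7%, 6.96% and 22.5% for the DMSO comparisons at 12 h. It called 14.8% for light against probe alone at 3 h. At 6 h it called 8.19% for T-REX against light alone and 12.2% for light alone against DMSO. At 12 h, T-REX and probe alone against DMSO each gave 0 when only both arms were fitted and 0 without the 4 deviating libraries. Within arms, which hold fewer libraries, 3 to 6 h gave 2 in T-REX, 2 in light alone, 1 in probe alone and 2 in DMSO, 3 to 12 h 3 (light alone), 3 (probe alone) and 2 (DMSO), and 6 to 12 h 0 in T-REX and in light alone and 1 in probe alone and in DMSO (16% to 25.3%, 38.8% to 42.3% and 12.1% to 17.9% of all genes in these intervals). Within DMSO, THOC2 from 3 to 6 h was -0.02 and NXT1 from 6 to 12 h was 0.12, opposite to the values over the 4 arms. Without each library in turn, 657 of 672 results were kept. Counts ran from 0 to 1 for T-REX against probe alone and against DMSO at 3 h, 0 to 2 against the mean at 3 h, and 0 to 3 for T-REX and for probe alone against DMSO at 12 h. Over time they ran from 5 to 6 (3 to 6 h), 4 to 6 (3 to 12 h) and 3 to 4 (6 to 12 h). The limma-trend fit over all times was not run, since the log2 tables were scaled separately. Depth limits THOC6 and NXT1 most.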
